A study of Mus musculus with 8 samples.

Results

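10 interleukin receptor chain genes were followed in mouse splenic B cells sorted as IL-10+ or IL-10-. They are Il5ra, Csf2rb and Csf2rb2 of the IL-5 and IL-3 receptors, Il2ra, Il2rb and Il2rg of the IL-2 receptor, Il4ra, Il21r, and Il10ra and Il10rb of the IL-10 receptor. They were found by symbol in the GENCODE M21 annotation and make up 10 of the 26589 genes in the table. Each group, IL-10+ and IL-10-, had 4 bulk RNA-seq libraries. The B cells were purified from the spleen of IL-10-eGFP Tiger mice, in which green fluorescent protein reports transcription of Il10. All had been cultured for 48 h with 3 µg/ml lipopolysaccharide (LPS), a ligand of Toll-like receptor 4, before they were sorted on IL-10, so there is no group without LPS. A label field calls the treatment untreated, against the protocol. Age, sex and the number of mice are not stated, and the labels do not say whether a replicate number (1 to 4 in each group) marks a mouse or a culture, so the p-values rest on a spread among libraries that may be technical.

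Cytokine receptors of this kind have no kinase of their own. A ligand-binding chain pairs with a shared signalling chain, and the Janus kinases bound to their tails phosphorylate STAT transcription factors. The common β chain (Csf2rb) serves the IL-3, IL-5 and GM-CSF receptors, the common γ chain (Il2rg) serves the IL-2, IL-4, IL-7, IL-9, IL-15 and IL-21 receptors, and Il10rb is shared by IL-10, IL-22 and interferon-λ. On mouse B cells, IL-5 is known as a growth and differentiation factor, above all of B-1 cells, IL-4 and IL-21 steer class switching and plasma cell formation, and IL-10 receptor signals reach the cell that secretes IL-10 as well as its neighbours.

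Mouse has a pair of β chain genes, shown here because their likeness bears on how their reads can be told apart. Csf2rb encodes the common chain and Csf2rb2 a chain that works with IL-3 alone. Their coding sequences, taken from the GENCODE M21 transcripts, are 2688 bases for Csf2rb and 2634 bases for Csf2rb2, and 95.2% of 2628 aligned positions are identical. The first 90 coding bases of each are given 5′ to 3′, with the 3 bases that differ in capitals.
Csf2rb: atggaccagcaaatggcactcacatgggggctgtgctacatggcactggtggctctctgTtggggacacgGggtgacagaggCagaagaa
Csf2rb2: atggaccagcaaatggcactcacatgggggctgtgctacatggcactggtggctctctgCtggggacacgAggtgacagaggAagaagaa
Of the 100-base stretches of the Csf2rb2 transcript, 7.2% also occur in Csf2rb, and of the 50-base stretches 19.0%. The sources used here do not give how reads shared between genes were counted, and the value of Csf2rb2, the lower of the pair, is therefore uncertain.

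The promoter of Il5ra is shown because Il5ra had the largest change of the 10. It is the 250 bases before the gene's start in RefSeq (GRCm38.p6, chr6:106749038-106749287, minus strand), with an E-box, CAGCTG, in capitals.
Il5ra: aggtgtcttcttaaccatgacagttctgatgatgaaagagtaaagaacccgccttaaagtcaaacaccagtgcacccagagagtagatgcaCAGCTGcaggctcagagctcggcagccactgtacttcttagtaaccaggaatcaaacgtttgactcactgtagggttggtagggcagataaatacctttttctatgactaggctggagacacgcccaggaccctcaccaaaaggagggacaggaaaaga
The E-box lies 159 to 154 bases before the start. Windows were matched for 6 of the 10 genes, all but Csf2rb, Il2rb, Il10ra and Il10rb, and each was searched on both strands for 8 motifs. CAGCTG was found in the windows of Il5ra and Il4ra, against 13.0% of all 32851 windows of the same length. The octamer ATGCAAAT was found in the Il4ra window (1.6% of all windows), the STAT motif TTCNNNGAA in that of Csf2rb2 (7.0%), and the NF-κB motif (GGG, any 2 bases, T, any base, CCC) in that of Il2ra (4.3%). The Il4ra window (chr7:125552021-125552270) runs past that gene's GENCODE start at 125552120. By that start, the octamer lies inside the gene and not before it. The STAT motif with a spacer of 4 bases (5.9%), the interferon regulatory factor repeat (GAAA, any 2 bases, GAAA, 3.0%), the ETS motif AGAGGAA (8.6%) and the TATA motif TATAAA (12.4%) were found in none of the 6, which says only that these letters are not in these windows.

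Library totals recovered from the deposited values lay between 27380398 and 29968287 reads, and a gene with 1 kb of exons had 0.0334 to 0.0365 FPKM (reads scaled by gene length and library total) for each read. B cell markers were high in every library, with a summed level of 1315 to 1678 FPKM in IL-10+ cells and 1529 to 2101 FPKM in IL-10- cells over 8 genes, of which Ms4a1, Pax5, Cd22 and Cd37 were lower in IL-10+ cells. Plasmablast markers differed between the groups throughout. Of 10, the 9 that could be tested were all higher in IL-10+ cells, and their summed level was 1481 to 1505 FPKM in IL-10+ cells against 340.2 to 481.8 FPKM in IL-10- cells. Immunoglobulin genes took 13.2% to 16.8% of all FPKM in IL-10+ libraries and 3.7% to 4.7% in IL-10- libraries. The receptor differences between the groups given below were measured alongside it, and its part in them was not tested. In bulk RNA, a difference in the number of cells of a type and a difference in RNA per cell cannot be told apart.

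Receptor chains moved in both directions. With limma on log2(FPKM + 1) and a Benjamini-Hochberg adjusted p under 0.05, Il5ra, Csf2rb and Il2rb were higher in IL-10+ cells and Il4ra and Il10ra were lower. That is 5 of the 9 that passed the filter on low values, where 19.7% of the 11329 genes tested were called (10.6% higher, 9.18% lower). The median log2 change was -0.20 over the 9 and -0.06 over all genes tested. The other 4, Il2ra, Il2rg, Il21r and Il10rb, did not pass, and Csf2rb2 was under the filter. All 10 had the same direction in each of the 4 replicate numbers, 5 higher and 5 lower in IL-10+ cells, which 64.7% of the genes tested did. Csf2rb2 is not part of the genes behind that share.

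**Figure D1:**
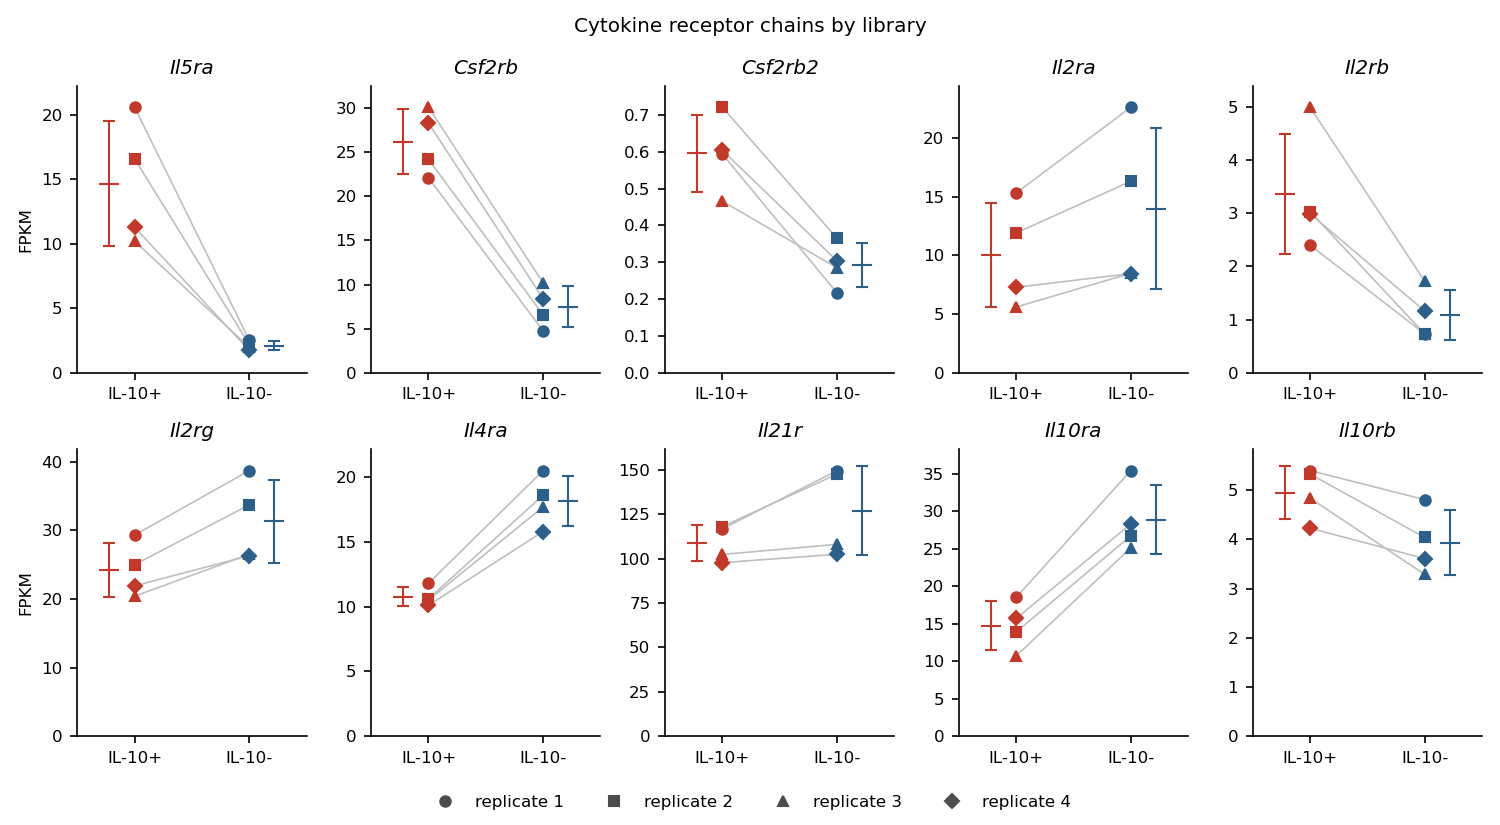
Level of each receptor chain in FPKM (vertical axis, from 0, a scale of its own in each panel) in 4 IL-10+ libraries (left, red) and 4 IL-10- libraries (right, blue), with grey lines joining libraries of the same replicate number and bars of mean ± SD (n = 4). Il5ra lies at 10.2 FPKM or more in IL-10+ libraries and at 2.53 FPKM or less in IL-10- libraries, and Il10ra at 18.5 FPKM or less in IL-10+ libraries and at 25.1 FPKM or more in IL-10- libraries.

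Both chains of the IL-5 receptor, Il5ra and Csf2rb, were higher in IL-10+ cells than in IL-10- cells. Il5ra, the chain that binds IL-5 (chr6:106710357-106749037, minus strand, GRCm38), had 20.6, 16.6, 10.2 and 11.3 FPKM in IL-10+ libraries 1 to 4, against 2.53, 2.20, 1.99 and 1.74 FPKM in IL-10- libraries 1 to 4. The groups stood far apart, and within IL-10+ cells libraries 1 and 2 were the highest. The means were 14.7 ± 4.84 FPKM in IL-10+ cells and 2.11 ± 0.335 FPKM in IL-10- cells (mean ± SD over 4 libraries each), a 6.94-fold difference. The log2 change was 2.29 with a standard error of 0.203 (limma, adjusted p = 0.000105). Reads behind these levels numbered 1054 to 2017 in IL-10+ libraries and 186 to 253 in IL-10- libraries.

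Csf2rb, the common β chain that carries the IL-5 signal (chr15:78325752-78353847, plus strand), had 22.1, 24.2, 30.1 and 28.3 FPKM in IL-10+ libraries, against 4.76, 6.57, 10.2 and 8.41 FPKM in IL-10- libraries. The groups did not overlap, and here libraries 3 and 4 were the highest in both groups, the opposite of Il5ra. Mean levels were 26.2 ± 3.69 FPKM in IL-10+ cells and 7.47 ± 2.33 FPKM in IL-10- cells (mean ± SD over 4 libraries each), a 3.50-fold difference. Its log2 change was 1.71 with a standard error of 0.198 (limma, adjusted p = 0.00043). Multiplied by the annotated exon length, the levels of Csf2rb, Csf2rb2 and Il2rb did not come out as whole reads, so no read numbers are given for them.

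Csf2rb2, the β chain specific to IL-3 (chr15:78282507-78305721, minus strand), was low throughout. It had 0.594, 0.721, 0.466 and 0.604 FPKM in IL-10+ libraries, against 0.217, 0.365, 0.285 and 0.304 FPKM in IL-10- libraries. All IL-10+ libraries lay above all IL-10- libraries. The difference in mean log2(FPKM + 1) was 0.30 (two-sided exact permutation test, p = 0.0286, the smallest that 4 against 4 libraries can give). When no filter on low values was applied, limma gave it an adjusted p of 0.0241. Its level was 0.0155 to 0.0299 times that of Csf2rb in IL-10+ libraries and 0.0281 to 0.0556 times in IL-10- libraries.

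Markers of other cells that carry the IL-5 receptor were low in these libraries. All 9 markers of eosinophils, basophils and mast cells were under 1 FPKM in every library, with a summed level of 0.743 to 1.40 FPKM in IL-10+ cells and 0.173 to 0.693 FPKM in IL-10- cells. Highest among them were Prg2, with 0.641 ± 0.218 FPKM in IL-10+ cells and 0.294 ± 0.159 FPKM in IL-10- cells, and Kit, with 0.239 ± 0.103 FPKM in IL-10+ cells and 0.0552 ± 0.0466 FPKM in IL-10- cells. Siglecf and Epx did not exceed 0.0256 FPKM and Ms4a2 did not exceed 0.114 FPKM in any library. B-1 cell markers were mixed. Of 9 listed, 7 were tested, of which Spn, Bhlhe41, Ctla4 and Ptpn22 were higher and Zcwpw1 and Fcrl5 lower in IL-10+ cells. Among all genes tested, 10.6% were called higher and 9.18% lower. Under the filter, Myo1d averaged 0.851 ± 0.306 FPKM in IL-10+ cells and 0.198 ± 0.0188 FPKM in IL-10- cells, and its groups did not overlap. Cd5, also under the filter, averaged 0.255 ± 0.0566 FPKM in IL-10+ cells and 0.195 ± 0.0820 FPKM in IL-10- cells (mean ± SD over 4 libraries each). The part of these cells in the Il5ra result was not tested. Of 9 macrophage and dendritic cell markers, which bear on Csf2rb, 7 were under 1 FPKM in every library. Lyz2 averaged 0.293 ± 0.189 FPKM in IL-10+ cells and 0.235 ± 0.214 FPKM in IL-10- cells, and Csf1r 0.0351 ± 0.0364 FPKM in IL-10+ cells and 0.0144 ± 0.0194 FPKM in IL-10- cells. The list summed to 13.8 to 21.4 FPKM in IL-10+ cells and 16.3 to 25.6 FPKM in IL-10- cells, nearly all of it from Cd68 and Flt3.

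Of the 3 IL-2 receptor chains, the β chain passed the test without the replicate block. Il2rb, which binds IL-2 and IL-15 and signals for both (chr15:78479256-78495271, minus strand), had 2.40, 3.03, 4.99 and 2.99 FPKM in IL-10+ libraries, against 0.731, 0.730, 1.72 and 1.16 FPKM in IL-10- libraries. Library 3 was the highest in each group, and the groups did not overlap. Il2rb averaged 3.35 ± 1.13 FPKM in IL-10+ cells and 1.09 ± 0.470 FPKM in IL-10- cells (mean ± SD over 4 libraries each), a 3.09-fold difference. This gave a log2 change of 1.05 with a standard error of 0.205 (limma, adjusted p = 0.00747).

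Il2ra, the α chain known as CD25, which raises the affinity for IL-2 (chr2:11642807-11693193, plus strand), varied more between libraries than between groups. It had 15.3, 11.9, 5.60 and 7.28 FPKM in IL-10+ libraries, against 22.6, 16.3, 8.47 and 8.44 FPKM in IL-10- libraries. Libraries 1 and 2 were above 3 and 4 in both groups, and the groups overlapped, although within each number the IL-10+ library was the lower. The difference on the log2 scale was -0.42 with a standard error of 0.374 (limma, adjusted p = 0.485). With the replicate number as a block the standard error was 0.0643 and the adjusted p 0.00338. Gm37881, which overlaps Il2ra on the same strand, had 0.411 to 1.91 FPKM in IL-10+ libraries and 0.634 to 2.21 FPKM in IL-10- libraries.

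Il2rg, the common γ chain (chrX:101264378-101268255, minus strand), had 29.3, 25.0, 20.4 and 21.9 FPKM in IL-10+ libraries, against 38.7, 33.7, 26.5 and 26.3 FPKM in IL-10- libraries. Each IL-10+ library lay below its same-numbered IL-10- library, but the groups overlapped. The log2 change was -0.36 with a standard error of 0.153 (limma, adjusted p = 0.145, and 0.000706 with the replicate number as a block). Most markers of T and NK cells, which also carry IL-2 receptors, were low. Of 9 T cell markers, 8 were under 1 FPKM in every library, the 3 Cd3 genes did not exceed 0.0783 FPKM, and Lck, which averaged 1.94 ± 0.494 FPKM in IL-10+ cells and 4.86 ± 0.460 FPKM in IL-10- cells (mean ± SD over 4 libraries each), was the exception. Of those 8, means were higher in IL-10+ cells for Cd4, Cd8b1, Cd28 and Cd247 and lower for Cd3e, Cd3d, Cd3g and Cd8a. Cd8b1 averaged 0.210 ± 0.0537 FPKM in IL-10+ cells and 0.0596 ± 0.0887 FPKM in IL-10- cells, and its groups overlapped. Cd247 averaged 0.0872 ± 0.0411 FPKM in IL-10+ cells and 0.0312 ± 0.00689 FPKM in IL-10- cells, without overlap. The T cell list summed to 1.93 to 3.33 FPKM in IL-10+ cells and 4.45 to 5.49 FPKM in IL-10- cells, and 6 NK cell markers to 0.0933 to 0.554 FPKM in IL-10+ cells and 0.137 to 0.610 FPKM in IL-10- cells.

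The ligand-binding chains of IL-4 and IL-21 lie next to each other on chromosome 7 and use the common γ chain. Il4ra, the IL-4 receptor α chain, which signals mainly through STAT6 (chr7:125552120-125579474, plus strand), had 11.8, 10.6, 10.5 and 10.1 FPKM in IL-10+ libraries, against 20.5, 18.6, 17.7 and 15.8 FPKM in IL-10- libraries. The spread within IL-10+ cells was small, and the groups did not overlap. Il4ra fell to 10.7 ± 0.748 FPKM in IL-10+ cells, against 18.2 ± 1.97 FPKM in IL-10- cells (mean ± SD over 4 libraries each). Limma put the log2 change at -0.70 with a standard error of 0.0875 (limma, adjusted p = 0.000669). Reads numbered 1689 to 1940 in IL-10+ libraries and 2841 to 3452 in IL-10- libraries.

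Il21r (chr7:125603429-125633570, plus strand) was the most abundant of the 10 chains in both groups. It had 116.7, 118.0, 102.3 and 97.7 FPKM in IL-10+ libraries, against 149.5, 147.5, 108.0 and 102.4 FPKM in IL-10- libraries. Both groups were higher in libraries 1 and 2 than in 3 and 4, and their ranges overlapped. Its log2 change was -0.20 with a standard error of 0.142 (limma, adjusted p = 0.364). The block gave an adjusted p of 0.0338, and 0.0729 when the libraries were also rescaled by median of ratios. Its reads numbered 9089 to 10968 in IL-10+ libraries and 10104 to 13974 in IL-10- libraries.

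Of the 2 chains of the IL-10 receptor, Il10ra was lower in IL-10+ cells and Il10rb did not pass the test. Il10ra, the chain that binds IL-10 (chr9:45253837-45269149, minus strand), had 18.5, 13.9, 10.7 and 15.7 FPKM in IL-10+ libraries, against 35.4, 26.7, 25.1 and 28.3 FPKM in IL-10- libraries. Every IL-10+ library lay below every IL-10- library. Il10ra averaged 14.7 ± 3.29 FPKM in IL-10+ cells and 28.9 ± 4.56 FPKM in IL-10- cells (mean ± SD over 4 libraries each), so IL-10- cells had 1.96 times the level of IL-10+ cells. The log2 change was -0.94 with a standard error of 0.165 (limma, adjusted p = 0.00438). From replicates 1 and 2 alone it was -0.90 (adjusted p = 0.0575), and in the 4 numbers it ran between -1.16 and -0.81. Reads numbered 1077 to 1773 in IL-10+ libraries and 2471 to 3471 in IL-10- libraries. The pseudogene Gm20612 on the opposite strand overlaps Il10ra and had 0.758 to 1.76 FPKM in IL-10+ libraries and 0.892 to 3.78 FPKM in IL-10- libraries, and without a stated strand setting reads from the pair cannot be told apart. The microRNA gene Mir7086 overlaps Il10ra on the same strand. It had 0 to 0.533 FPKM in IL-10+ libraries and 0.513 to 5.49 FPKM in IL-10- libraries, and its part in the Il10ra values was not tested.

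Il10rb, the shared partner chain (chr16:91406164-91425834, plus strand), had 5.40, 5.33, 4.84 and 4.23 FPKM in IL-10+ libraries, against 4.81, 4.04, 3.29 and 3.61 FPKM in IL-10- libraries. It was higher in IL-10+ cells within each number, while the ranges of the groups overlapped. The estimated log2 change was 0.27 with a standard error of 0.109 (limma, adjusted p = 0.119). Without IL-10- replicate 1 the change was 0.35 (adjusted p = 0.0417), and with the block the adjusted p was 0.0134. Gm21970 overlaps Il10rb on the same strand and was not analysed here. Il10 itself, the gene sorted on, had 32.0 to 44.4 FPKM in IL-10+ libraries and 1.28 to 4.76 FPKM in IL-10- libraries.

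With the replicate number as a block, all 9 chains that could be tested were called, 4 higher and 5 lower in IL-10+ cells. That fit called 53.7% of all genes tested, 20.4% higher and 33.3% lower. The numbers also carried a difference of their own. Libraries 1 and 2 lay above 3 and 4 in both groups for 6 chains (Il5ra, Il2ra, Il2rg, Il4ra, Il21r and Il10rb), as for 24.9% of all genes tested, and below for Csf2rb, as for 21.4%. The groups did not overlap for 6 of the 10 chains, 4 higher and 2 lower in IL-10+ cells, against 25.2% of the genes tested (12.2% higher and 13.0% lower). Csf2rb2, among the 6, was under the filter and is not part of the genes behind that share.

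**Figure D2:**
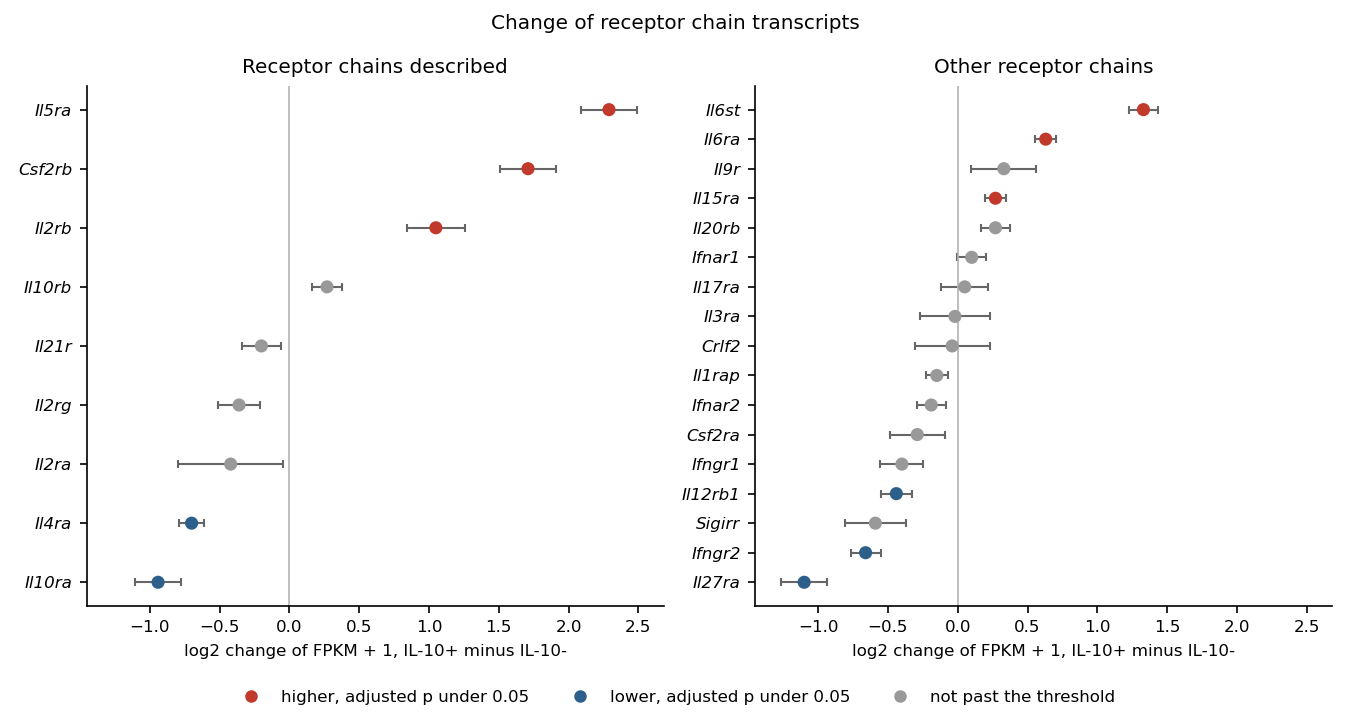
Log2 change of FPKM + 1, IL-10+ minus IL-10- (horizontal axis), for the 9 chains tested (left) and the 17 other receptor chains tested (right), with bars of ± 1 standard error from limma. Red is higher and blue lower in IL-10+ cells at an adjusted p under 0.05, and grey did not pass. Il5ra is farthest to the right at 2.29, and Il27ra, among the other chains, farthest to the left at -1.10.

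FPKM are per length, so levels can be ordered between genes where the lengths used are sound. For Csf2rb, Csf2rb2 and Il2rb the annotated exon length did not give whole reads, so their places in the order are less certain. In IL-10+ cells the order of mean levels was Il21r, Csf2rb, Il2rg, Il10ra, Il5ra, Il4ra, Il2ra, Il10rb, Il2rb and Csf2rb2. In IL-10- cells it was Il21r, Il2rg, Il10ra, Il4ra, Il2ra, Csf2rb, Il10rb, Il5ra, Il2rb and Csf2rb2. Neighbours whose ranges overlapped were, in IL-10+ cells, Csf2rb and Il2rg, the run from Il10ra through Il5ra and Il4ra to Il2ra, and Il10rb and Il2rb. In IL-10- cells they were Il2rg and Il10ra, and the run from Il4ra through Il2ra and Csf2rb to Il10rb. Csf2rb thus had rank 2 in IL-10+ cells and rank 6 in IL-10- cells, and Il5ra rank 5 in IL-10+ cells and rank 8 in IL-10- cells.

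The balance of chains was compared within libraries as 6 ratios, tested on the log2(FPKM + 1) scale. The ratios Il10ra to Il10rb and Il4ra to Il2rg did not overlap between the groups, with or without the added 1. The level of Il10ra was 3.43, 2.61, 2.20 and 3.71 times that of Il10rb in IL-10+ libraries, against 7.37, 6.60, 7.62 and 7.84 times in IL-10- libraries. On the log2(FPKM + 1) scale this ratio was lower in IL-10+ cells by a difference of -1.21 (1.38 ± 0.32 in IL-10+ cells and 2.59 ± 0.10 in IL-10- cells, SD, n = 4 each). The ratio of Il4ra to Il2rg differed by -0.35 (-1.09 ± 0.15 in IL-10+ cells and -0.74 ± 0.15 in IL-10- cells). That of Csf2rb2 to Csf2rb differed by -1.41 (-4.08 ± 0.27 in IL-10+ cells and -2.67 ± 0.39 in IL-10- cells). This last value rests on the added 1, since the plain FPKM ratios overlapped, and differed by -0.82 on the log2 scale (exact permutation p = 0.0571). Each of the 3 had a two-sided exact permutation p of 0.0286 on the log2(FPKM + 1) scale, the smallest possible, and 0.0571 after Benjamini-Hochberg adjustment over the 6 ratios, so none passed the correction. All 4 replicate numbers showed the direction in each.

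The other 3 ratios overlapped between the groups. Il5ra had 0.933, 0.685, 0.339 and 0.398 times the level of Csf2rb in IL-10+ libraries, against 0.531, 0.335, 0.196 and 0.206 times in IL-10- libraries. It was higher in IL-10+ cells in 4 of 4 numbers, by 0.57 on the log2(FPKM + 1) scale (exact permutation p = 0.257, also after adjustment). The ratio of Il2ra to Il2rb spread most, with 6.38, 3.92, 1.12 and 2.44 in IL-10+ libraries, against 30.9, 22.4, 4.92 and 7.26 in IL-10- libraries. It was lower in IL-10+ cells in 4 of 4 numbers, by -1.47 on the log2(FPKM + 1) scale (exact permutation p = 0.114, adjusted 0.137). Without the added 1, a setting chosen after seeing the data, the difference was -2.12 (exact permutation p = 0.0571, not adjusted). The ratio of Il21r to Il2rg was higher in IL-10+ cells in 4 of 4 numbers, by 0.15 (exact permutation p = 0.114, adjusted 0.137). These tests exchange libraries without regard to their numbers, and a test on the 4 within-number differences cannot give a p below 0.125.

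**Figure D3:**
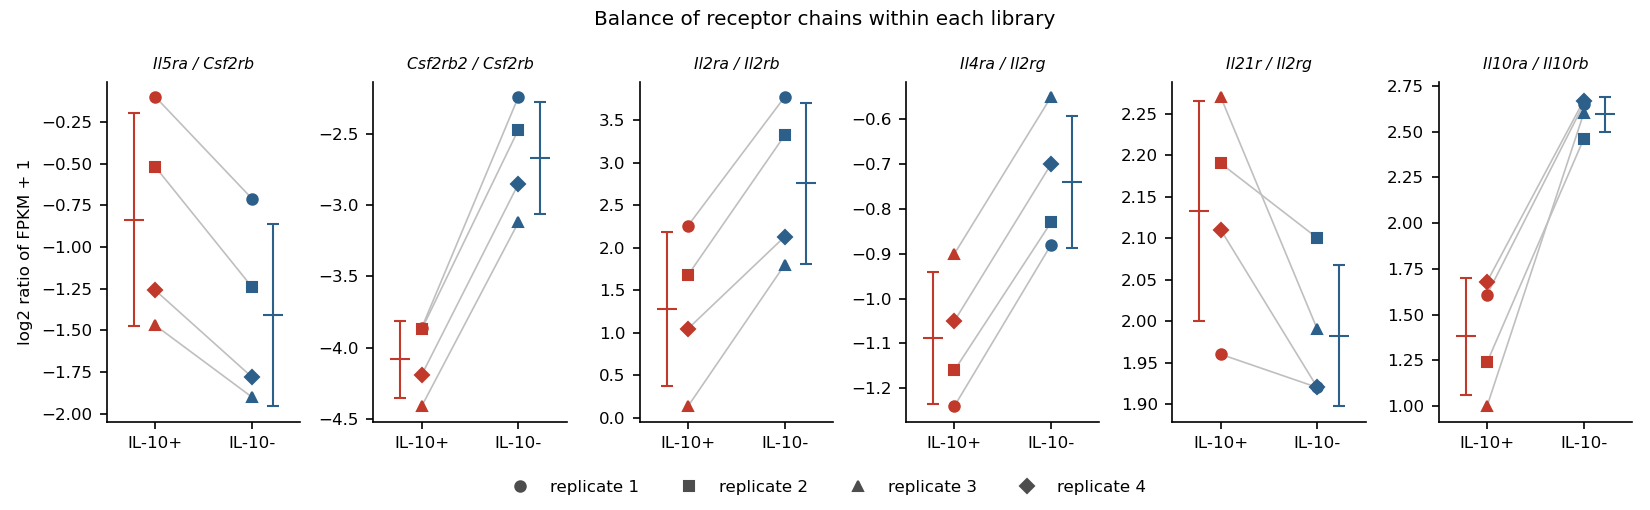
Log2 ratio of FPKM + 1 between pairs of chains within each library (vertical axis, a scale of its own in each panel, not starting at 0), with IL-10+ libraries left in red and IL-10- libraries right in blue, grey lines joining the same replicate number, and bars of mean ± SD (n = 4). The ratio of Il10ra to Il10rb lies at 1.68 or less in IL-10+ libraries and at 2.46 or more in IL-10- libraries.

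Csf2rb2, Csf2rb and Il2rb lie within 212.8 kb of chromosome 15. Of the 13 genes annotated there 5 were tested, and the 3 tested between the receptors had log2 changes of -0.04 to 0.44. Mpst, a sulfurtransferase, averaged 19.8 ± 3.46 FPKM in IL-10+ cells and 19.8 ± 2.11 FPKM in IL-10- cells, with a log2 change of -0.01 (limma, adjusted p = 0.969). Its neighbour Tst averaged 1.33 ± 0.379 FPKM in IL-10+ cells and 1.38 ± 0.0464 FPKM in IL-10- cells, with a log2 change of -0.04 (limma, adjusted p = 0.842). Kctd17, named after its value was seen, was higher in IL-10+ cells by a log2 of 0.44 (limma, adjusted p = 0.0322), a call lost in 6 of the 8 leave-one-library-out fits (adjusted p up to 0.092). The 2 genes tested in the 81.5 kb from Il4ra to Il21r were those receptors themselves.

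**Figure D4:**
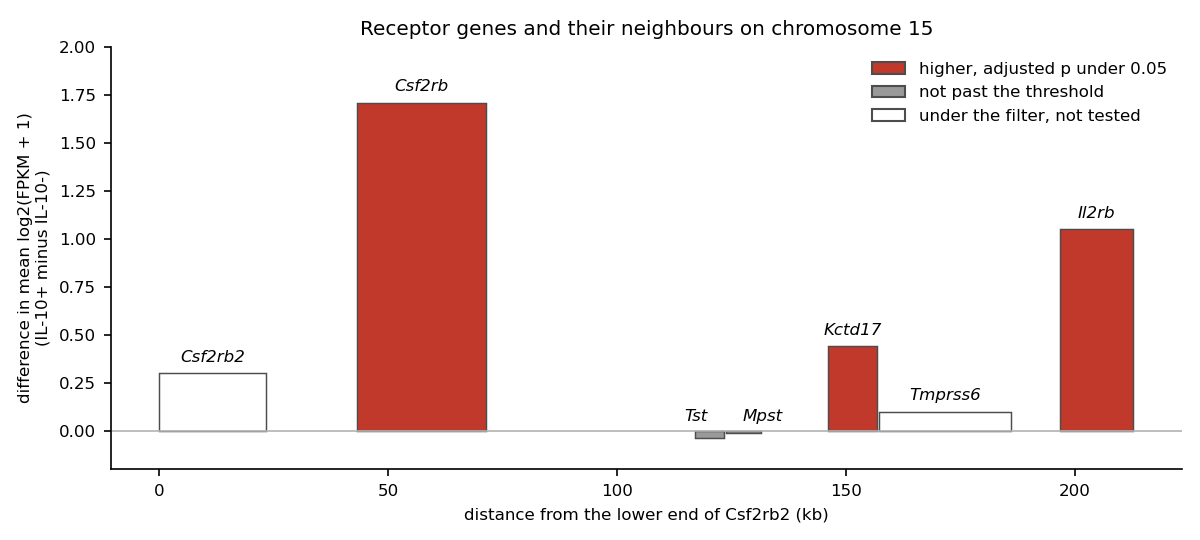
Difference in mean log2(FPKM + 1), IL-10+ minus IL-10- (vertical axis), of the 7 measured genes between Csf2rb2 and Il2rb, drawn to scale as boxes over their distance in kb from the lower end of Csf2rb2 (horizontal axis). Red boxes passed the test, grey boxes did not and white boxes were under the filter on low values. Csf2rb (1.71) and Il2rb (1.05) stand above the genes between them, of which Tst (-0.04) and Mpst (-0.01) lie at 0.

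Other receptor chains were also divided. Of 44 other cytokine receptor genes listed, 43 were measured, 26 of these were under 1 FPKM in every library, and 17 could be tested, with 3 called higher and 3 called lower in IL-10+ cells and a median log2 change of -0.04. All genes tested gave 19.7% called. With the block these counts were 4 higher and 7 lower, where 53.7% of all genes tested were called. Il6st (gp130), the signal chain of the IL-6 family, had 8.48, 6.33, 6.76 and 6.63 FPKM in IL-10+ libraries, against 1.91, 1.95, 2.54 and 2.34 FPKM in IL-10- libraries. The log2 change was 1.33 with a standard error of 0.104 (limma, adjusted p = 5.71e-05). Il6ra, which binds IL-6 and signals through gp130, also rose, to 2.48 ± 0.0915 FPKM in IL-10+ cells, against 1.24 ± 0.138 FPKM in IL-10- cells (mean ± SD over 4 libraries each, limma, adjusted p = 0.000444). Il27ra, which pairs with gp130 to bind IL-27, went the other way and fell to 2.39 ± 0.634 FPKM in IL-10+ cells, against 6.24 ± 1.23 FPKM in IL-10- cells (mean ± SD over 4 libraries each, limma, adjusted p = 0.00179).

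Il12rb1, the chain shared by the IL-12 and IL-23 receptors, was lower in IL-10+ cells by a log2 of -0.44 (limma, adjusted p = 0.0234). That call was lost in 4 of the 8 leave-one-library-out fits (adjusted p up to 0.0692). Ifngr2, the signal chain of the interferon-γ receptor and the 1 called of 5 tested class II chains, fell to 10.4 ± 1.26 FPKM in IL-10+ cells, against 16.9 ± 2.02 FPKM in IL-10- cells (mean ± SD over 4 libraries each, limma, adjusted p = 0.00302). Ifnar1, of the type I interferon receptor, averaged 17.6 ± 1.56 FPKM in IL-10+ cells and 16.4 ± 2.33 FPKM in IL-10- cells (limma, adjusted p = 0.546).

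The α chains that share the common β chain with Il5ra were not called with it. Il3ra averaged 3.63 ± 1.35 FPKM in IL-10+ cells and 3.70 ± 1.34 FPKM in IL-10- cells, with a log2 change of -0.02 (limma, adjusted p = 0.963). Csf2ra, of the GM-CSF receptor, averaged 14.3 ± 3.91 FPKM in IL-10+ cells and 17.6 ± 3.88 FPKM in IL-10- cells, with a log2 change of -0.29 (limma, adjusted p = 0.355, and 0.015 with the block). Whether the change of Il5ra differs from theirs was not tested. Among the partners of the common γ chain, Il15ra was higher in IL-10+ cells by a log2 of 0.27 (limma, adjusted p = 0.0327), a call lost in 6 of the 8 leave-one-library-out fits (adjusted p up to 0.0867). Il7r, of the IL-7 receptor, did not exceed 0.137 FPKM in any library. Crlf2, of the TSLP receptor, averaged 20.6 ± 5.85 FPKM in IL-10+ cells and 21.6 ± 8.21 FPKM in IL-10- cells (limma, adjusted p = 0.945).

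Of the IL-1 and IL-18 family 2 of 8 could be tested and neither was called. Sigirr, an inhibitor of that family, averaged 3.58 ± 1.13 FPKM in IL-10+ cells and 5.88 ± 1.72 FPKM in IL-10- cells (limma, adjusted p = 0.0955, and 0.00135 with the block). Its partner in the list, the accessory chain Il1rap, averaged 1.01 ± 0.0632 FPKM in IL-10+ cells and 1.23 ± 0.122 FPKM in IL-10- cells (limma, adjusted p = 0.234). Il17ra, the only IL-17 receptor gene tested, reached 24.7 FPKM in IL-10+ libraries and 25.2 FPKM in IL-10- libraries, with a log2 change of 0.05 (limma, adjusted p = 0.863). All 4 homodimeric receptors listed, among them Epor and Prlr, were under 1 FPKM in every library.

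Downstream of the receptors, 14 of 15 listed signalling partners were tested, with 2 called higher and 4 lower in IL-10+ cells and a median log2 change of -0.18, where 19.7% of all genes tested were called. With the block 3 were higher and 8 lower, where 53.7% of all genes were called. Ptpn6, the phosphatase SHP-1 that dampens receptor signals, fell to 75.9 ± 6.63 FPKM in IL-10+ cells, against 144.7 ± 3.93 FPKM in IL-10- cells (mean ± SD over 4 libraries each, limma, adjusted p = 7.08e-05). Stat6, the factor activated by IL-4, fell to 24.3 ± 5.78 FPKM in IL-10+ cells, against 44.5 ± 6.90 FPKM in IL-10- cells (limma, adjusted p = 0.00835). Jak1, the kinase bound to Il4ra, Il21r, Il2rb and Il10ra, fell to 40.0 ± 2.47 FPKM in IL-10+ cells, against 60.5 ± 2.73 FPKM in IL-10- cells (limma, adjusted p = 0.00043). Stat5a, used by the IL-2 and IL-5 receptors, was the fourth called lower, with a log2 change of -0.48 (limma, adjusted p = 0.00173). Tyk2, the kinase bound to Il10rb, rose to 16.3 ± 1.13 FPKM in IL-10+ cells, against 11.3 ± 0.939 FPKM in IL-10- cells (limma, adjusted p = 0.00238). The adaptor Shc1 was the other called higher, with a log2 change of 0.30 (limma, adjusted p = 0.0179), a call lost in 3 of the 8 leave-one-library-out fits (adjusted p up to 0.053).

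Genes that STAT factors are known to induce were also divided among those tested, with a median log2 change of 0.06. Of 10 listed, 8 were tested, with 2 called higher and 2 lower, where 19.7% of all genes tested were called. With the block 3 were higher and 3 lower, where 53.7% of all genes were called. Socs2 and Cish were under the filter, and both were higher in IL-10+ cells without overlap between the groups. Of the genes tested, 12.2% were higher without overlap, a share that does not include genes under the filter. Socs2 averaged 1.23 ± 0.157 FPKM in IL-10+ cells and 0.318 ± 0.105 FPKM in IL-10- cells. Cish averaged 0.221 ± 0.0667 FPKM in IL-10+ cells and 0.0903 ± 0.0264 FPKM in IL-10- cells. Pim1, a kinase induced by STAT3 and STAT5, rose to 284.7 ± 28.5 FPKM in IL-10+ cells, against 135.1 ± 4.89 FPKM in IL-10- cells (mean ± SD over 4 libraries each, limma, adjusted p = 5.14e-05). Bcl2l1, which encodes the survival protein Bcl-xL, rose to 21.1 ± 1.87 FPKM in IL-10+ cells, against 11.8 ± 2.69 FPKM in IL-10- cells (limma, adjusted p = 0.00466). Socs3, a STAT3-induced inhibitor of gp130, fell to 7.04 ± 1.04 FPKM in IL-10+ cells, against 13.6 ± 1.29 FPKM in IL-10- cells (limma, adjusted p = 0.000676). The fourth was the cytokine Osm, lower by a log2 of -0.33 (limma, adjusted p = 0.0431), a call lost in 7 of the 8 leave-one-library-out fits (adjusted p up to 0.115).

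The patterns most like Il5ra and Il10ra were sought over the 8 libraries, which share groups and replicate numbers, among 6877 genes that averaged 5 FPKM or more in either group. Closest to Il5ra were Os9 and Ccdc186 (Pearson r = 0.995 for each), Ctsd and Dusp14 (r = 0.994 for each). Os9, a lectin of the endoplasmic reticulum, averaged 105.8 ± 8.14 FPKM in IL-10+ cells and 56.1 ± 2.70 FPKM in IL-10- cells, and Dusp14, a phosphatase, 6.62 ± 1.90 FPKM in IL-10+ cells and 1.33 ± 0.372 FPKM in IL-10- cells (mean ± SD over 4 libraries each). Closest to Il10ra were Zfp598 (r = 0.989), Cpsf7 and Elmsan1 (r = 0.988 for each) and Jade2 (r = 0.987), all with lower means in IL-10+ cells. These coefficients are descriptions over points that share the difference between the groups.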

How the data were processed

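RNA-seq libraries were made with a NEBNext Ultra kit from Trizol-extracted RNA, per the labels' protocols. The authors deposited FPKM, read numbers scaled by gene length and library total, made with HISAT2 2.1.0, HTSeq 0.6.0 and build mm10 per the submitters' processing notes. The sources used here give no annotation release, strand setting or rule for shared reads. Gene names and positions came from GENCODE M21 (GRCm38, the same build as mm10), which held 26517 of the 26589 identifiers. Multiplied by GENCODE exon length and a library total, 93.4% to 93.6% of values above 0 came out as whole reads within 0.05.

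Since FPKM are not counts, limma 3.58.1 (R 4.3.3) with a variance trend was fitted to log2(FPKM + 1) of the 11329 genes that reached 1 FPKM in 4 or more libraries, IL-10+ minus IL-10-, with Benjamini-Hochberg adjustment over all of them and a threshold of 0.05. A log2 change on this scale understates that of low genes, and a plain fold is the ratio of group means. Ratios of chains were compared with two-sided exact permutation tests (SciPy 1.17.1). The fit was run on simulated data whose libraries were drawn independently. That run therefore does not bear on the pairing of libraries by number described below. No 2 libraries of a group were near-copies.

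Across genes, the correlation of same-numbered libraries, each taken as its deviation from the group mean, was 0.71, 0.58, 0.62 and 0.70, and at most 0.43 between other numbers, so the numbers were taken to pair the libraries. This pairing comes from the data, not from the labels, and the fit without it stayed the reported one. Alternatives were other pseudocounts and filters, 2 rescalings, the block, fits within replicates 1 and 2 or 3 and 4, leaving out each library and, chosen after seeing the data, ratios without a pseudocount.

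The receptor genes and the other lists were chosen with earlier results of these data known. From each pathway list the 3 called genes with the largest change were named, or the 2 most abundant where fewer than 2 were called, and others where they complete a small count. Further genes named beside a result, among them cell type markers, Il3ra, Csf2ra and Il7r, were picked with their values already seen. The 8 motifs were chosen as common B cell and cytokine response motifs.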

Additional observations from a re-analysis of the deposited data

Results flagged for a closer look

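In 5 of 74 groups of 4 libraries checked, 1 library lay apart from the other 3 by more than Dixon's limit on the gap over the range, where chance passes about 1 group in 20. None of the 10 receptor chains was among them. Il6ra was at 2.34 FPKM in IL-10+ replicate 3, below 2.52 to 2.53 FPKM in the other IL-10+ libraries. Il1rap was at 1.11 FPKM in IL-10+ replicate 2, above the others. The phosphatase gene Ptpn6 was at 66.1 FPKM in IL-10+ replicate 3, below the others. At levels near 0, Prlr was at 0.00229 FPKM in IL-10- replicate 2, below the others, and Il15 at 0.481 FPKM in IL-10- replicate 2, above the others.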

How the results depend on the processing

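All 242 alternative log2 changes and ratio differences kept their direction. With the replicate number as a block, in a fit alone, after median-of-ratios scaling, and after scaling to a total that leaves out immunoglobulin and mitochondrial genes, 9, 8 and 8 of the receptor chains and 11, 11 and 12 of the other chains were called, where 6083 of 11329, 5604 of 11327 and 5663 of 11329 of all genes were. Calls gained in those 3 fits were Il2ra (log2 change -0.42, -0.38, -0.39), Il2rg (-0.36, -0.31, -0.32) and Il10rb (0.27, 0.31, 0.30), and Il21r (-0.20) in the first only. Csf2rb2 (0.30) was called without the filter on low values and Il2rg (-0.31) in replicates 3 and 4 only. The call of Il10ra ended in replicates 1 and 2 only (-0.90). A filter of 5 FPKM in 4 libraries left 8 other chains to test, of which 2 were called. It left 7 receptor chains to test, of which 4 were called, and gave no value for Il2rb, Il10rb and Csf2rb2. With that filter 1700 of 7417 genes were called.

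Leaving out each library in turn, the log2 change ran from 2.11 to 2.43 for Il5ra, 1.54 to 1.86 for Csf2rb, -0.64 to -0.16 for Il2ra, 0.89 to 1.19 for Il2rb, -0.45 to -0.25 for Il2rg, -0.76 to -0.64 for Il4ra, -0.30 to -0.12 for Il21r, -1.05 to -0.81 for Il10ra and 0.21 to 0.35 for Il10rb, which was called only without IL-10- replicate 1. The receptor chains called numbered 5 to 6 and the other chains called 4 to 6. In these fits 1621 to 2055 of the 11329 genes tested were called, against 2236 with all libraries. Ratio differences ran from 0.33 to 0.81 for Il5ra to Csf2rb, -1.56 to -1.27 for Csf2rb2 to Csf2rb, -1.80 to -1.09 for Il2ra to Il2rb, -0.41 to -0.28 for Il4ra to Il2rg, 0.11 to 0.21 for Il21r to Il2rg and -1.31 to -1.09 for Il10ra to Il10rb, where 3 against 4 libraries cannot give an exact permutation p under 0.0571. The block's exact sign flips for ratios cannot go below 0.125, so the p of 0.0286 that 3 ratios had is out of reach in both. Without a pseudocount, a setting chosen after seeing the data, the ratio of Csf2rb2 to Csf2rb differed by -0.82 (exact permutation p = 0.0571) and that of Il5ra to Csf2rb by 0.90 (exact permutation p = 0.114). In that setting the ratio of Il2ra to Il2rb differed by -2.12 (exact permutation p = 0.0571). Among all genes tested, 1196 were called higher and 1040 lower, against 1330 and 767 with median-of-ratios scaling and 1293 and 784 without immunoglobulin and mitochondrial genes. Why these calls moved was not tested.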

Other observations

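Transcripts of the ligands of these receptors were scarce in the sorted cells apart from Il10. Of 14 listed, 9 were measured, and the 8 besides Il10 were under 1 FPKM in every library. Il4 averaged 0.203 ± 0.00443 FPKM in IL-10+ cells and 0.169 ± 0.0772 FPKM in IL-10- cells (mean ± SD over 4 libraries each). Il5 was at 0 in 3 of the 4 libraries of each group, with 0.0676 FPKM in IL-10+ replicate 3 and 0.0231 FPKM in IL-10- replicate 3. Il21 reached at most 0.0136 FPKM in IL-10+ libraries and was at 0 in all IL-10- libraries.

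Irs2, an adaptor of the IL-4 receptor, varied with replicate number 1. It had 27.5, 12.3, 13.4 and 10.2 FPKM in IL-10+ libraries, against 13.0, 3.97, 3.75 and 2.82 FPKM in IL-10- libraries. The log2 change was 1.40 with limma, at an adjusted p of 0.0531 and of 0.000222 with the replicate number as a block.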
